A study of Homo sapiens with 12 samples.

Results

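The alpha subunit genes of the 20S proteasome, PSMA1 to PSMA7, were taken from the deposited expression table by gene name, which gave 7 of its 58676 genes. The table holds FPKM, that is, fragments scaled to gene length and to the size of the library, for 12 RNA sequencing libraries of A549, a human lung adenocarcinoma cell line. A control line (labelled Control1) and 2 lines labelled NFE2L1 KO1 and NFE2L1 KO2, in which the gene NFE2L1 was targeted for knockout, were each given DMSO vehicle or 200 nM bortezomib for 4 h. Bortezomib is a drug that blocks the catalytic sites of the proteasome. Each of the 6 groups had 2 libraries, and one of each pair carries the suffix R2 in its title. The partner carries R1 in the knockout groups and no suffix in the control groups. The labels do not say whether the libraries of a group came from separate cultures, how the knockouts were made, or whether a line is a single clone. The p-values below therefore measure the spread between libraries, which may be technical, and a difference between lines cannot be told apart from a difference between clones.

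The 20S core is a barrel of stacked rings that degrades proteins. The outer rings are built from the alpha subunits, whose N-terminal tails close the gate to the chamber and whose outer face binds the 19S cap and other activators. The beta subunits form the inner rings and carry the catalytic sites. NFE2L1 is a transcription factor of the endoplasmic reticulum that is itself degraded by the proteasome, and when the proteasome is inhibited it is released and acts on proteasome subunit genes through antioxidant response elements. PSMA6, PSMA2, PSMA4, PSMA7, PSMA5, PSMA1 and PSMA3 encode, in this order, the subunits that follow one another around the ring. Every complete ring holds one copy of each, except in a variant core in which PSMA7 takes the place of PSMA4.

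Sequences in front of the genes are shown because the antioxidant response element is the site that NFE2L1 is known for. Each member was also higher with bortezomib in 6 of 6 pairs of libraries (below), beside 24.8% of all tested genes, of which PSMA2 and PSMA6 are not part. Windows of 250 bases before each listed start were taken from RefSeq (GRCh38.p14), and 6 of the 7 genes had a window, 9 windows in all. PSMA7 is only named here. On both strands, TGACNNNGC, the core of the antioxidant response element, was in 1 of the 9 windows, that of the third listed start of PSMA4. CCAAT, the box bound by NF-Y, was in 4 of the 9 windows, which belong to 4 of the 6 genes (PSMA2, PSMA3, PSMA4 and PSMA5). GAANNTTC, a heat shock element core, was in none of the 9. Among all 35116 windows of the same length, 10.9% held the first motif, 32.0% the second and 5.78% the third. A match is a description of the letters, and a window without one says only that these letters are not in it. The printed stretches are the 150 bases before the start of PSMA5 (chr1:109426449-109426598, minus strand), the 150 bases before the outermost start of PSMA3 (chr14:58244681-58244830, plus strand) and the 29 bases around the match of PSMA4 (chr15:78540650-78540678, plus strand, inside exons of other transcripts of the gene). Capitals mark the motifs, and ATTGG is CCAAT read on the other strand.
PSMA5: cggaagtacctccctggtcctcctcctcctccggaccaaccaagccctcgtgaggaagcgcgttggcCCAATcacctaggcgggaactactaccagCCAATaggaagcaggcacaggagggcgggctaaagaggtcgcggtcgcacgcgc
PSMA3: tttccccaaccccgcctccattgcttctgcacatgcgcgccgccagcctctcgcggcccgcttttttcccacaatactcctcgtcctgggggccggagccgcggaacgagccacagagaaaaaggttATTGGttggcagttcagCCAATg
PSMA4: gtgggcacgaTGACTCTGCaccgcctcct

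The libraries held 13211608 to 23819258 reads assigned to genes, and the 7 alpha subunit genes together took 0.0263% to 0.0934% of them. The mitochondrial share of reads was 12.3% to 19.3% in R2 and 5.44% to 6.80% in the partner libraries. All 7 epithelial and A549 markers had a median of at least 1 FPKM, CDKN2A, which A549 is known to lack, was listed at 0 in all 12 libraries, and of 9 markers of leukocytes, fibroblasts and endothelium only COL1A1 had a median above 1 FPKM (5.64). SFTPC, SFTPA1 and NKX2-1, genes of ordinary alveolar type 2 cells, reached at most 0.0858 FPKM. NFE2L1 itself was at 9.82% to 11.6% of the control line in KO1 with vehicle and at 22.3% to 25.6% in KO2. With bortezomib it was at 18.9% to 24.8% in KO1 and 26.8% to 33.7% in KO2, so its transcript was lower but still present in both knockout lines.

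The 7 genes did not have equal levels in the table, although their products are needed in equal numbers. PSMA7 (ENSG00000101182, chromosome 20, 62136735 to 62143440, minus strand) was highest, with a mean of 98.5 ± 30.5 FPKM (SD, n = 12 libraries). PSMA3 (ENSG00000100567, chromosome 14, 58244831 to 58272012, plus strand) had 29.5 ± 9.92 and PSMA4 (ENSG00000041357, chromosome 15, 78540405 to 78552419, plus strand) 28.3 ± 13.0. PSMA5 (ENSG00000143106, chromosome 1, 109399031 to 109426427, minus strand) had 12.9 ± 6.05. These 4 genes were followed by 3 with far lower values. PSMA1 (ENSG00000129084, chromosome 11, 14504874 to 14643635, minus strand) had 3.91 ± 1.06 FPKM. PSMA2 (ENSG00000106588, chromosome 7, 42916857 to 42932223, minus strand) had 0.982 ± 0.486 and PSMA6 (ENSG00000100902, chromosome 14, 35278633 to 35317493, plus strand) 0.625 ± 0.379. Coordinates are those of the table, which lie on GRCh38. PSMA7 alone made up 51.6% to 63.4% of the summed FPKM of the 7 genes in a library.

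The order was nearly the same in every library. PSMA7 held rank 1, PSMA5 rank 4 and PSMA1 rank 5 in all 12. PSMA3 and PSMA4 were neighbours that did not differ beyond their spread, since PSMA3 was above PSMA4 in 7 of 12 libraries with a ratio of 0.818 to 1.52. PSMA2 was above PSMA6 in 11 of 12, with a ratio of 0.980 to 3.05. Rescaling each library to the same sum gave the same order. FPKM divides by gene length, here all annotated exon bases of a gene, so the order also depends on that length. It was 1750 bases for PSMA7, 3119 for PSMA3, 6996 for PSMA4 and 5724 for PSMA5. In the unnumbered control library with vehicle, PSMA4 had 6585 reads and PSMA7 had 5439. The R2 library of that group had the other order, with 2131 for PSMA4 and 2544 for PSMA7. The part of gene length in the order was not tested.

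**Figure D1:**
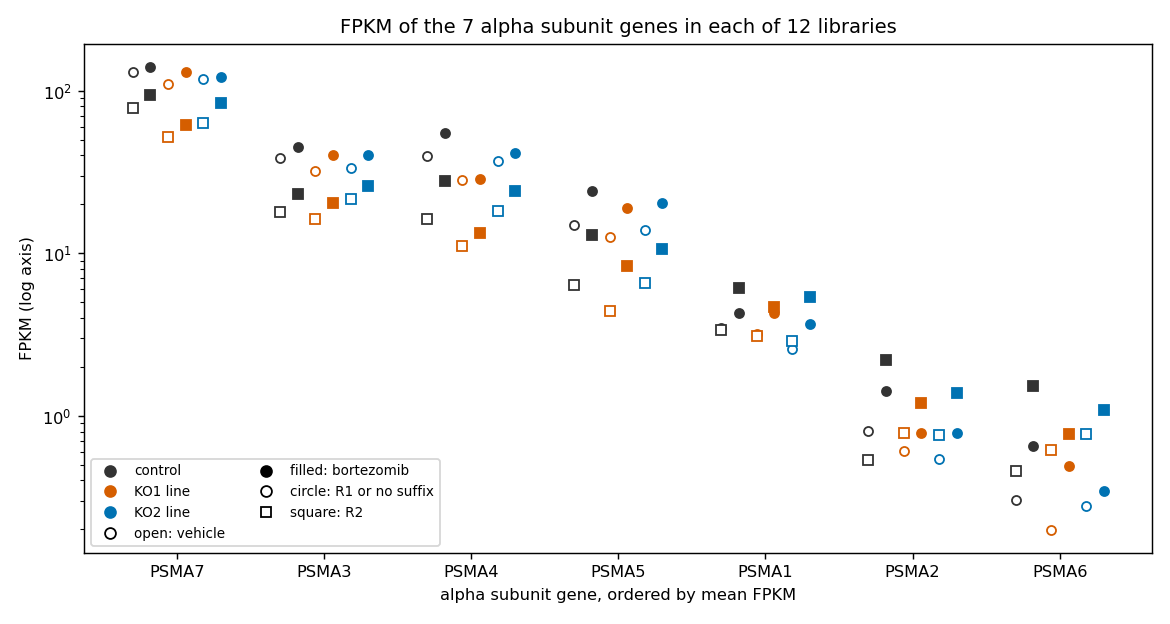
FPKM (log axis) of each alpha subunit gene in each of the 12 libraries, with genes ordered by their mean, colours for the lines, open marks for vehicle, filled marks for bortezomib and squares for R2. PSMA7 sits between 52.1 and 139.5 FPKM, PSMA6 between 0.199 and 1.52, and the squares of the 4 highest genes lie below their circles while those of PSMA6 lie above them.

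The 3 low genes share a feature of the annotation. In GENCODE release 29, 88.6% of the coding bases of PSMA1, 97.1% of those of PSMA2 and 70.4% of those of PSMA6 lie under exons of another protein-coding gene on the same strand, against 0% in PSMA3, PSMA4, PSMA5 and PSMA7. The other genes are readthrough genes, whose transcripts run from a neighbour into the member. For PSMA1 this is RP11-140L24.4, listed at 0 in all 12 libraries. For PSMA2 it is RP11-111K18.1, with 0 to 4 reads, and for PSMA6 it is RP11-561B11.2, with 0 to 9 reads. How reads on shared bases were assigned is not given in the sources used here, and the part of this overlap in the low values was not tested. The values of PSMA1, PSMA2 and PSMA6 are therefore uncertain as levels of their transcripts. Their lowest and highest recovered read counts were 146 and 394, 45 and 220, and 18 and 186. Adding the reads listed for the overlapping gene raised a library's count by at most 5.13% for PSMA2 and 16.1% for PSMA6. Any reads that were counted for neither gene are not in these sums. The sums therefore set no upper limit on the part of the overlap.

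Across all protein-coding genes, 86.3% of the 1072 with at least 70% of coding bases shared in this way had a mean below 1 FPKM, against 43.7% of the 17772 with none shared. The first class includes the readthrough genes themselves, and the limit of 70% was chosen after the values were seen. Of 39 other proteasome genes, 0 reached that share and only PSMB10 had any. On the opposite strand, PSMA2 overlaps MRPL32 and AC010132.11, and PSMA3 overlaps PSMA3-AS1 and C14orf37. PSMA3 also holds CTD-2002H8.2 on its own strand, with no shared exon bases and 17 to 90 reads. PSMA8, the testis paralog of PSMA7, was listed at 0 in all 12 libraries, and 6 of 8 pseudogenes named after members were at 0 in all of them.

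**Figure D2:**
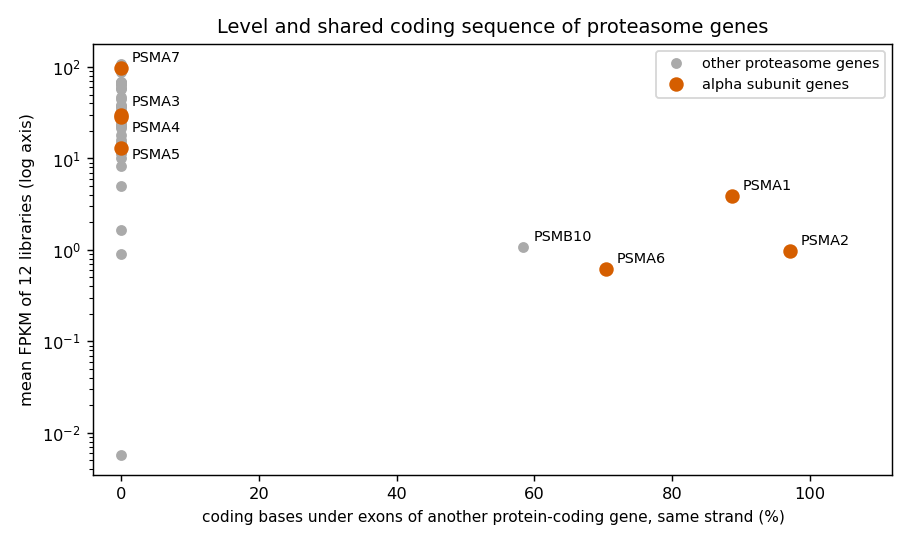
Mean FPKM over 12 libraries (log axis) against the percentage of coding bases that lie under exons of another protein-coding gene on the same strand, for the alpha subunit genes and the other proteasome genes. PSMA1, PSMA2 and PSMA6 stand at 88.6%, 97.1% and 70.4% with means of 3.91, 0.982 and 0.625 FPKM, and the other 4 alpha genes stand at 0%.

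The same division appeared between the libraries of a group. In R2, PSMA3, PSMA4, PSMA5 and PSMA7 were lower than in the partner library in 6 of 6 groups, with median ratios of 0.511, 0.482, 0.455 and 0.563. PSMA6 was higher in R2 in 6 of 6 groups (median ratio 2.55), PSMA2 in 5 of 6 (1.47) and PSMA1 in 4 of 6 (1.11). Of the 12194 genes with a mean of at least 1 FPKM, 44.2% were lower in R2 in all 6 groups and 25.2% were higher. Protein-coding genes at or above that mean had a median R2 minus partner difference of 0.02 on the log2(FPKM + 1) scale where at least 70% of the coding bases were shared (147 genes), and of -0.29 where none were (10010 genes). These classes were not matched for level, and the log2(FPKM + 1) scale understates the change of low genes. The share of mitochondrial reads moved with the same suffix, and its part in these ratios was not tested.

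The effect of proteasome inhibition was read from bortezomib and vehicle libraries of the same line. All 42 ratios of bortezomib to vehicle, 7 genes in 6 pairs of libraries matched by line and suffix, were above 1. Each gene was thus higher in 6 of 6 pairs, a pattern shown by 24.8% of all tested genes. These have a mean of at least 1 FPKM and do not include PSMA2 and PSMA6. The median ratio was largest in PSMA6 (1.78, range 1.24 to 3.30), PSMA2 (1.64, 1.28 to 4.12) and PSMA5 (1.60, 1.46 to 2.03). PSMA1 (1.47), PSMA4 (1.26), PSMA3 (1.22) and PSMA7 (1.18) followed. PSMA6 and PSMA2 had at most 186 and 220 reads in a library, so their place in this order is uncertain. In bulk RNA a higher level per cell cannot be told apart from a change in which cells were present.

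**Figure D3:**
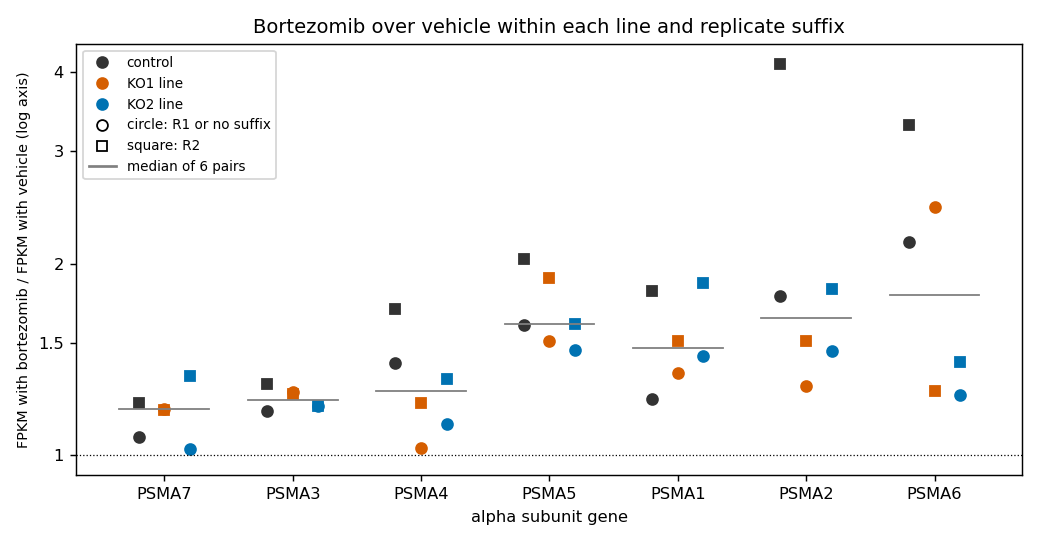
Ratio of FPKM with bortezomib to FPKM with vehicle (log axis) for each alpha subunit gene, one mark per line and suffix and a grey bar at the median of 6 pairs. All 42 marks lie above 1, from 1.02 in PSMA7 to 4.12 in PSMA2.

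PSMA5 encodes a subunit whose pocket with PSMA1 receives a tail of the 19S cap. In the control line PSMA5 had 15.0 FPKM in the unnumbered vehicle library and 6.39 in R2, against 24.0 and 13.0 with bortezomib. In KO1 it had 12.6 in R1 and 4.40 in R2 with vehicle and 19.0 and 8.37 with bortezomib. In KO2 it had 14.0 and 6.58 with vehicle and 20.4 and 10.6 with bortezomib. Within a suffix every bortezomib library was above its vehicle library, by 1.46 to 2.03 times, yet the groups overlapped in each line because R2 was so much lower. On the log2(FPKM + 1) scale the differences came to 0.78 (control), 0.68 (KO1) and 0.56 (KO2).

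PSMA4 encodes the subunit whose N-terminal tail is central to the closed gate. In the control line it had 39.5 FPKM without suffix and 16.3 in R2 with vehicle, against 55.2 and 27.6 with bortezomib. In KO1 it had 28.0 in R1 and 11.1 in R2 with vehicle, and 28.7 and 13.4 with bortezomib. In KO2 the values were 36.7 and 18.3 with vehicle and 41.1 and 24.1 with bortezomib. The ratio was 1.40 to 1.70 in the control line, but 1.03 to 1.21 in KO1 and 1.12 to 1.32 in KO2, so both control pairs were above all 4 knockout pairs. The share of all genes with this order was not computed. The difference in response, tested below, was not called (-0.39 on the log2(FPKM + 1) scale, limma adjusted p 0.515 with the block for the replicate suffix).

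PSMA7 encodes the neighbour of the PSMA4 product in the ring and had the smallest median ratio. With vehicle it had 130.5 FPKM without suffix and 77.7 in R2 in the control line, 110.1 and 52.1 in KO1, and 119 and 62.8 in KO2. With bortezomib it had 139.5 and 93.8 in the control line, 130.1 and 61.5 in KO1, and 121 and 83.6 in KO2. PSMA3, whose product also binds regulatory proteins such as p21 through its C terminus, had 38.5 and 17.9 with vehicle and 45.2 and 23.2 with bortezomib in the control line. It had 32.1 and 16.3 against 40.3 and 20.3 in KO1, and 33.4 and 21.6 against 40.0 and 25.8 in KO2. The PSMA3 ratios kept to a narrow band of 1.17 to 1.29 in the 3 lines.

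Among the low genes, PSMA1 had 3.48 FPKM without suffix and 3.35 in R2 with vehicle in the control line, against 4.26 and 6.08 with bortezomib. In KO1 it had 3.19 and 3.10 against 4.29 and 4.69, while in KO2 it had 2.56 and 2.89 against 3.67 and 5.40. The bortezomib and vehicle libraries of PSMA1 did not overlap in any line, which held for higher values in 16.9% of tested genes in the control line, 12.6% for KO1 and 15.8% for KO2. PSMA2 had 0.803 without suffix and 0.531 in R2 with vehicle in the control line and 1.43 and 2.19 with bortezomib. It had 0.608 and 0.787 against 0.780 and 1.19 in KO1, and 0.539 and 0.759 against 0.785 and 1.38 in KO2. PSMA2 did not overlap in the control line and KO2, but PSMA2 and PSMA6 are not among the tested genes of those shares. PSMA6 had 0.303 and 0.460 against 0.656 and 1.52 in the control line, and did not overlap there. In KO1 it had 0.199 and 0.613 against 0.489 and 0.774, and in KO2 0.278 and 0.774 against 0.345 and 1.09, with overlap in both.

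Changes were tested with limma on log2(FPKM + 1) over the 12194 genes with a mean of at least 1 FPKM, a filter that 5 members passed and PSMA2 and PSMA6 did not. Without a term for the replicate suffix, 0 of the 5 were called at an adjusted p under 0.05 in any line, where 0.467% of all tested genes were called in the control line, 0.238% for KO1 and 0.32% for KO2. None of the 5 had an unadjusted p under 0.05 in a single line, against 12.3%, 9.46% and 9.59% of all genes. For the mean of the 3 lines 0 of 5 were called against 11.6% of all genes, PSMA1 was the 1 of 5 with an unadjusted p under 0.05, beside 26.9% of all genes, and its limma adjusted p was 0.0701. Limma voom on recovered reads (genes with at least 10 reads) without the block also called 0 of 7, beside 0.491% of all genes in the control line, 0.229% in KO1, 0.432% in KO2 and 13.4% for the mean. At an unadjusted p under 0.05 it had PSMA2 in the control line, beside 13.3% of all genes, and PSMA1 and PSMA2 for the mean, beside 28.5%.

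The suffix paired the libraries (the check is given with the processing), and with it as a block more members were called. For the mean of the 3 lines PSMA5 rose by 0.67 on the log2 scale (limma, SE 0.087, adjusted p 0.000224), PSMA1 by 0.48 (SE 0.096, adjusted p 0.00268), PSMA4 by 0.34 (SE 0.092, adjusted p 0.0123) and PSMA3 by 0.28 (SE 0.087, adjusted p 0.0209). PSMA7 did not pass, at 0.21 (SE 0.098, limma adjusted p 0.0926). These 4 of 5 stand beside 27.0% of all tested genes called higher. In the control line PSMA5 and PSMA4 rose, with changes of 0.78 and 0.60 (limma adjusted p 0.00505 and 0.0200), beside 16.1% of all genes. In KO1 only PSMA5 rose (0.68, limma adjusted p 0.0114), beside 13.9%. In KO2 PSMA5 and PSMA1 rose (0.56 and 0.55, limma adjusted p 0.0250 and 0.0375), beside 12.7%. The median change of the 5 members was 0.34 for the mean of the lines, against -0.01 over all tested genes.

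Leaving out each of the 12 libraries in turn under the block kept PSMA5 and PSMA1 called for the mean of the 3 lines in 12 of 12 fits, PSMA4 in 10 and PSMA3 in 7. PSMA4 missed the threshold without either control R2 library (log2 change 0.29, limma adjusted p 0.0515 for both). PSMA3 missed it without the same 2 libraries, KO1 bortezomib R1, KO2 vehicle R1 or KO2 bortezomib R2 (changes of 0.24 to 0.26, adjusted p 0.0679 to 0.0884). In the control line PSMA5 was lost without either R2 library (change 0.64, adjusted p 0.0789 to 0.0795). PSMA4 was lost there without any of the 4, with a change of 0.73 without an unnumbered library and 0.47 without an R2 library. Leaving out the vehicle or the bortezomib library of a suffix gave the same change. Unnumbered libraries have their own level in the block, so the change then rests on the 1 remaining control pair. The 12 fits are therefore not 12 separate checks. In KO1 PSMA5 was lost without KO1 vehicle R2 or either bortezomib library of KO1 (changes of 0.51 to 0.69, adjusted p 0.0763 to 0.0889). In KO2 PSMA5 was lost without any of the 4 KO2 libraries (changes of 0.44 to 0.69, adjusted p 0.0524 to 0.184), and PSMA1 without either KO2 vehicle library, KO2 bortezomib R2 or either KO1 bortezomib library (changes of 0.36 to 0.58, adjusted p 0.0562 to 0.284).

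PSMA2 and PSMA6 were reached by a fit of limma voom to reads recovered from FPKM, over 15277 genes with a mean of at least 10 reads and with the block, a choice made after the data were seen. In the control line PSMA6 rose by 1.47 (SE 0.31, adjusted p 0.000784) and PSMA2 by 1.42 (SE 0.30, adjusted p 0.000849) in limma voom. Neither passed in KO1 (0.59 and 0.51, limma voom adjusted p 0.200 and 0.251) or KO2 (0.43 and 0.72, 0.305 and 0.0803). In this fit 5 of 7 members were called higher in the control line beside 17.7% of all genes, 1 in KO1 beside 14.9%, 2 in KO2 beside 14.6%, and 6 for the mean of the lines beside 27.7%. Without the filter and with the block, PSMA2 and PSMA6 were not called in the control line on log2(FPKM + 1) (limma adjusted p 0.0800 and 0.109).

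**Figure D4:**
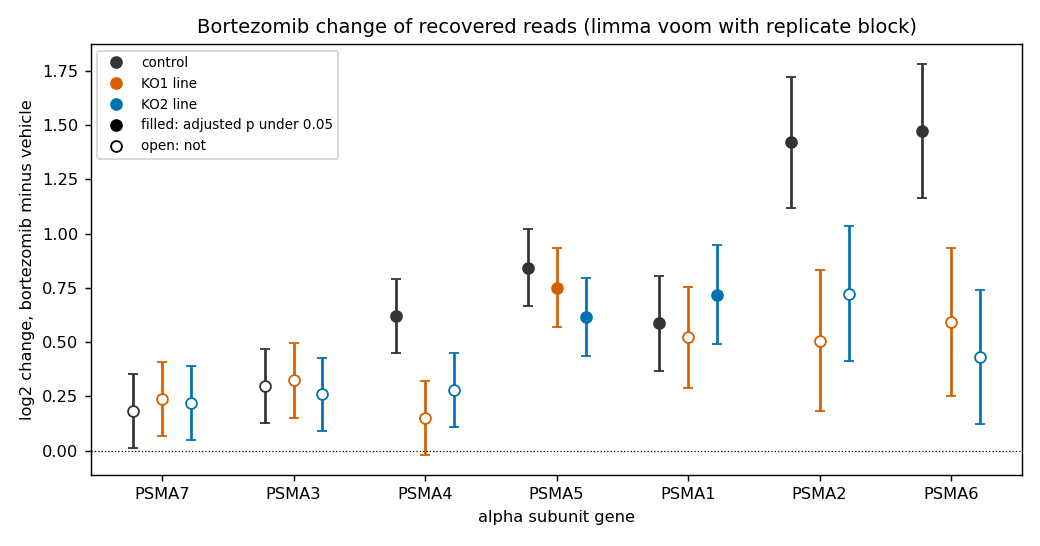
Log2 change from vehicle to bortezomib of each alpha subunit gene in 3 lines, from limma voom on recovered reads with the replicate block, with bars of 1 SE and filled marks for an adjusted p under 0.05. The control line stands at 1.42 in PSMA2 and 1.47 in PSMA6, and PSMA7 and PSMA3 have open marks in all 3 lines.

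The question whether the alpha genes depend on NFE2L1 was addressed by setting KO1 and KO2 against the control line, each R2 library with the R2 of the control line and each R1 with the unnumbered library. KO1 and KO2 share these control libraries, so their values are not independent. With vehicle 21 of 28 values lay below 100% of control, 12 of 14 in KO1 and 9 of 14 in KO2. The share of values below control over all genes was not computed. Their median log2(FPKM + 1) difference from control was 0.02 in KO1 and 0.06 in KO2 over the tested genes. PSMA1 (73.4% to 92.5%) and PSMA7 (67.1% to 90.9%) were below control in 4 of 4 pairs, a pattern shown by 16.3% of tested genes. PSMA2 (67.2% to 148%) and PSMA6 (65.7% to 168%) lay on both sides of control. In each of the 2 genes both R1 values were below 100% and both R2 values above it.

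With bortezomib 26 of 28 values lay below control, 13 of 14 in each line. Here too the share over all genes was not computed. The median difference of the tested genes was 0.05 in KO1 and 0.05 in KO2 on the log2(FPKM + 1) scale. The 5 genes PSMA2, PSMA4, PSMA5, PSMA6 and PSMA7 were below control in 4 of 4 pairs, beside 21.6% of tested genes, of which PSMA2 and PSMA6 are not part. PSMA2 was at 54.4% and 54.7% of control in KO1 and 55.1% and 63.2% in KO2. PSMA6 was at 51.0% and 74.5% in KO1 and 52.7% and 71.5% in KO2. PSMA4 was at 48.4% and 52.1% in KO1, against 74.4% and 87.4% in KO2. PSMA3 was at 87.6% to 111% (median 88.9%), PSMA7 at 65.6% to 93.3% (88.0%) and PSMA1 at 77.1% to 100.6% (87.4%).

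**Figure D5:**
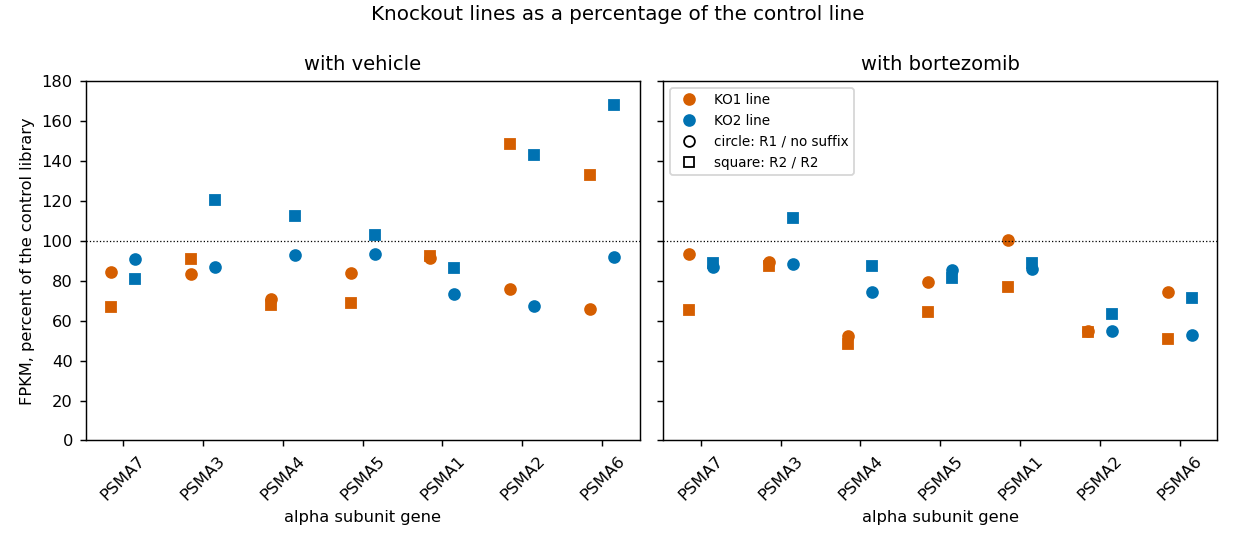
FPKM of the knockout lines as a percentage of the matched control library, with vehicle (left) and bortezomib (right), one mark per line and suffix and a dotted line at 100%. With bortezomib 26 of 28 marks lie below the line, and the lowest are those of PSMA4 in KO1 at 48.4% and 52.1%. The share of such marks over all genes was not computed.

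In limma without the block 0 of 5 members were called, and 0 had an unadjusted p under 0.05, in each comparison with the control line, the mean of both knockout lines included. All genes tested were called at 0.213% (KO1) and 0.23% (KO2) with vehicle and at 0.107% (KO1) and 0.0656% (KO2) with bortezomib, and for the mean of KO1 and KO2 at 0.344% and 0.164%. With the block PSMA4 was lower in KO1 with bortezomib by a log2 difference of -0.91 (limma, SE 0.19, adjusted p 0.0222), which made 1 of 5 beside 3.92% of all genes called lower. The call was lost in 5 of 12 fits that left out 1 library: control bortezomib R2 (-0.72), either KO1 bortezomib library (-0.93 and -0.87) and either KO2 vehicle library (-0.92), with limma adjusted p from 0.0539 to 0.272. No R1 library exists in the control groups, so under the block the link between knockout and control runs mostly over R2. Limma voom with the block gave -0.95 (adjusted p 0.00239), beside 6.38% of all genes called lower. In KO2 with bortezomib PSMA4 had a difference of -0.25 (limma adjusted p 0.497 with the block) and 0 of 5 members were called, beside 4.81% of all genes. With vehicle 0 of 5 were called with the block in KO1 (5.95% of all genes) and in KO2 (4.91%), and at an unadjusted p under 0.05 there were 2 members in KO1 (PSMA4 and PSMA7; 21.7% of all genes) and 0 in KO2 (19.1%). For PSMA4 with vehicle the KO1 difference was -0.45 (limma adjusted p 0.199 with the block). The mean of both knockout lines with vehicle called 0 of 5 with the block, beside 6.18% of all genes, with PSMA7 at an unadjusted p under 0.05, beside 21.7% of all genes. With bortezomib it called 0 of 5 with the block, beside 7.66% of all genes, and PSMA4 and PSMA5 had an unadjusted p under 0.05, beside 23.6% of all genes. PSMA4 was called there with limma voom and the block (-0.61, adjusted p 0.0273), beside 6.09% of all genes called lower.

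Whether the response to bortezomib differed between knockout and control lines was tested as an interaction, the mean change of KO1 and KO2 minus that of the control line. On log2(FPKM + 1) it was -0.39 for PSMA4 (limma adjusted p 1 without and 0.515 with the block), -0.16 for PSMA5, 0.05 for PSMA7, 0.01 for PSMA1 and -0.01 for PSMA3. With limma voom and the block it was -0.96 for PSMA6 (SE 0.39, adjusted p 0.313) and -0.81 for PSMA2 (SE 0.38, adjusted p 0.422). No member was called in these fits, where 0.0% of all genes were called with or without the block on log2(FPKM + 1) and 0.871% with voom and the block. At an unadjusted p under 0.05 there were 0 of 5 members on log2(FPKM + 1), beside 0.943% of all genes without and 10.7% with the block, and 2 of 7, PSMA2 and PSMA6, with voom and the block, beside 11.4%. Within a suffix the control ratio was above both knockout ratios for PSMA2, PSMA4 and PSMA5. For PSMA6 this held in R2, while the KO1 R1 ratio of 2.45 was above the 2.16 of the unnumbered control pair. The unnumbered control ratio was below both R1 knockout ratios for PSMA1 (1.22 against 1.35 and 1.43) and PSMA3 (1.17 against 1.26 and 1.20). In R2 the PSMA3 control ratio was above both (1.29 against 1.25 and 1.20). For PSMA1 in R2, and for PSMA7 in either suffix, it lay between the knockout ratios. The share of all genes with such orders was not computed. None of these differences passed the test. In vehicle KO1 and KO2 were also set against each other. Limma called 0 of 5 members without the block (0.0656% of all genes; 0 at an unadjusted p under 0.05) and 0 with it (3.0%), the latter with PSMA4 at an unadjusted p under 0.05, beside 14.5% of all genes (log2 difference -0.53, limma adjusted p 0.138).

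The other genes of the proteasome were taken as lists by their role, 40 genes of which 37 were tested. For the mean of the 3 lines with the block, 26 of the 37 rose, beside 27.0% of all genes called higher. With the block 1 fell, beside 3400 of the 12194 genes called lower. The median log2 change of the 37 was 0.48. Without the block 1 rose, beside 11.6% of all genes called in either direction. At an unadjusted p under 0.05 limma without the block had 7 of the 37, beside 26.9% of all genes. All 7 constitutive beta subunit genes rose with the block (median 0.54), from PSMB6 at 0.31 to PSMB4 at 0.81, as did all 6 ATPase genes of the 19S base (median 0.76), from PSMC1 at 0.46 to PSMC6 at 1.04. Of 12 tested non-ATPase genes of the cap 11 rose (median 0.68), with PSMD12 highest at 0.96 and ADRM1 not passing at 0.21 (limma adjusted p 0.0563). The alpha genes' median was 0.34 over the 5 tested on this scale, and 0.61 over all 7 in limma voom with the block, where the beta genes had 0.54, the ATPase genes 0.78 and the non-ATPase genes 0.69. The 7 add PSMA2 and PSMA6, whose levels are uncertain, and PSMA2 was highest at 0.88. In the alternative fits PSMA7, PSMA3 and PSMA4 reached at most 0.24, 0.31 and 0.37, and PSMA1 and PSMA5 at most 0.61 and 0.76. The difference between groups was not tested. None of 3 tested inducible or tissue-specific beta genes passed. Of 4 tested assembly chaperone genes, which help to build the core, PSMG2 rose (0.28) and PSMG3 fell by 0.58 on the log2 scale. Of 5 activator and inhibitor genes only PSME4 rose (0.44).

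In single lines with the block, 19 of the 37 rose in the control line, against 14 in KO1 and 12 in KO2, beside 16.1%, 13.9% and 12.7% of all genes, and PSMG3 was the 1 that fell in each. Without the block limma called 0 of the 37 in each line, beside 0.467%, 0.238% and 0.32% of all genes. At an unadjusted p under 0.05 it had 2 in the control line, beside 12.3% of all genes. In KO1 and KO2 it had 0, beside 9.46% and 9.59%. With bortezomib and the block 9 of the 37 were lower in KO1 than in the control line, beside 3.92% of all genes, PSMC4 most at -1.54 (limma adjusted p 0.00345). The 2 called higher there were PSMB8 at 0.98 and PSMG2 at 0.82 (limma adjusted p 0.0450 and 0.0174), beside 442 of the 12194 genes. In KO2 1 of the 37 was lower, beside 280 of the 12194 genes. Without the block 0 of the 37 were called in either knockout line, beside 0.107% of all genes in KO1 and 0.0656% in KO2. In limma 0 had an unadjusted p under 0.05, beside 5.5% and 3.91% of all genes. A further list held NFE2L2, a transcription factor related to NFE2L1, and 5 genes whose products process or degrade NFE2L1 protein (DDI2, NGLY1, SEL1L, SYVN1 and VCP). For the mean of the lines 4 of these 6 rose with the block in limma (median 0.30), beside 27.0% of all genes. Without the block 0 of 6 were called, beside 11.6% of all genes, and 0 had an unadjusted p under 0.05, beside 26.9%. NFE2L2 was highest at 0.56 and DDI2, the protease that activates NFE2L1, lowest at -0.02.

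The genes most like the alpha subunit genes were sought by Pearson's r with the mean of the 7 members over 12 libraries. The r is a description, because the points share lines, treatment and suffix. With values centred within the suffix the 5 highest were PLXNB3 (0.98), TBCA (0.98), PSMD13 (0.98), AC010761.13 (0.97) and UBFD1 (0.97). Without centring PSMD13 (0.98) and UBFD1 (0.98) led, followed by BLOC1S2 (0.98), NGLY1 (0.98) and MPHOSPH10 (0.97). PSMD13 is a lid subunit of the 19S cap, and TBCA is a tubulin folding cofactor. PLXNB3 reached only 0.50 and AC010761.13 only 0.41 without centring. PSMD6 held rank 7 and PSMC5 rank 9 with centring, and both are named after their values were seen. Other proteasome genes went the other way. With centring PSME2 had an r of -0.44 (rank 8796 of 12189) and PSMG3 one of -0.57 (rank 9748). The members themselves had an r with this mean, of which each is a part, of 0.85 to 0.97 when centred. Without centring PSMA6 had 0.04, PSMA1 and PSMA2 0.44, and the 4 high genes 0.87 to 0.96.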

How the data were processed

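Per the labels' protocols, total RNA was made into random-primed libraries without a stated strand mark. The deposited table gives FPKM per gene, made by the authors. CASAVA, STAR 2.5, HTSeq 0.6.1, DESeq2 and hg19 are named in the submitters' processing notes without their roles, but the coordinates in the table are those of GRCh38. Of 58676 gene IDs, 95.2% had the same position in GENCODE 29. FPKM divided by the value of 1 read for that gene and library gave whole reads for 100% of values (tolerance 0.1 read).

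Changes were computed with limma 3.58.1 (R 4.3.3; trend, Benjamini-Hochberg adjustment over all tested genes) on log2(FPKM + 1), a pseudocount of 1, for genes with a mean of at least 1 FPKM, in 12 libraries with 1 mean per group. This scale understates the change of low genes. R2 minus partner differences were correlated across genes between groups (r 0.70 to 0.89 over 15 pairs of groups, median 0.81), so the suffix was taken to pair the libraries. Unnumbered libraries had their own level in the block.

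Named genes were all 7 members, NFE2L1, PSMA8, genes overlapping a member, the highest and lowest change of each proteasome list, and the 5 genes most like the members. The members and lists were chosen with earlier results of these data known. Alternatives covered pseudocount, filter, scaling, voom, block and each library left out. Python 3.11.15, numpy 2.4.6 and pandas 2.3.3 were used.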

Additional observations from a re-analysis of the deposited data

How the results depend on the processing

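The replicate block decided the calls. For bortezomib in the control line 0 members were called without it, 2 with it, 3 with unnumbered libraries on the level of R1, 3 with voom and the block, 5 with voom over genes of at least 10 reads and the block, and 1 without the filter and with the block. In KO1 these 5 fits called 1 each, in KO2 the first 4 called 2 each, and for the mean of 3 lines they called 4, 4, 4, 6 and 5. For KO1 against control with bortezomib 1 member was called in 4 fits with the block (not without the filter), and for the mean of both knockout lines 1 in 3 of them. Leaving out 1 library under the block gave 0 to 2 calls in the control line, 0 to 1 in KO1, 0 to 2 in KO2, 2 to 5 for the mean of lines and 0 to 1 for KO1 against control with bortezomib. Over all genes the block moved the control line count from 57 to 3952. That count was 13 with a common FPKM sum, 115 without mitochondrial genes, 124 without the filter, 142 after quantile normalization and 219 with the contrast's groups alone. No fit run without the block called a member. The median change over members for the mean of 3 lines was 0.34 over 5 genes and 0.61 over all 7 with voom over genes of at least 10 reads and the block. The latter adds PSMA2 and PSMA6, so these medians are over different genes. Voom over genes of at least 10 reads, the block without the filter, and the restriction to PSMA3, PSMA4, PSMA5 and PSMA7 (0 called) were chosen after seeing the data.

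Without the block, leaving out 1 library turned the sign of single values, since it leaves a group with only R2 or only its partner. The bortezomib change ranged from -0.24 to 0.82 in the control line, -0.17 to 0.79 in KO1 and -0.056 to 0.56 in KO2 for PSMA3, from -0.015 to 1.21, -0.49 to 0.78 and -0.21 to 0.75 for PSMA4, and from -0.19 to 0.55, -0.30 to 0.77 and -0.23 to 0.67 for PSMA7. For KO1 against control with bortezomib the ranges were -0.37 to 0.059 (PSMA1), -0.65 to 0.31 (PSMA3), -0.997 to 0.10 (PSMA5) and -0.89 to 0.18 (PSMA7). The interaction ranged from -0.20 to 0.23 (PSMA1), -0.54 to 0.52 (PSMA3), -1.01 to 0.22 (PSMA4), -0.72 to 0.39 (PSMA5) and -0.32 to 0.42 (PSMA7). It also turned to -0.019 for PSMA1 without mitochondrial genes, 0.017 for PSMA3 with a common FPKM sum and -0.082 for PSMA7 after quantile normalization. Depth limits PSMA2 and PSMA6 most, at 45 to 220 and 18 to 186 reads.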
